A study of Rattus norvegicus with 9 samples.

Results

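The genes described are 10 dual-specificity phosphatases, Dusp1, Dusp2, Dusp3, Dusp4, Dusp5, Dusp6, Dusp7, Dusp10, Dusp14 and Dusp16, measured in the hippocampus (HC), the prefrontal cortex (PFC) and the blood of untreated rats. They were found by gene symbol in the annotation of the array, among 14506 genes that had a probe set annotated with exactly 1 symbol. Each of the 10 had 1 such probe set, and that probe set gives all values below. The animals were 3 male Wistar rats, numbered 2, 5 and 7, bought at an age of 6 weeks and housed for 1 week before decapitation in the morning, and RNA of each of the 3 tissues of a rat was hybridized to an array of its own (Rat Gene 1.0 ST, 9 arrays). HC and PFC were punched from frozen coronal sections and extracted with TRIzol and a column kit, whereas whole blood was collected in PAXgene tubes and extracted with the kit of that system, so tissue and extraction method cannot be told apart in any comparison of brain with blood. Values are probe set intensities after RMA, a method that corrects, quantile normalizes and summarizes the probes of a gene on what was read here as the log2 scale, so that a difference of 1 is a doubling of signal. They compare 1 probe set between tissues, not different genes with each other.

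Dual-specificity phosphatases remove phosphate from tyrosine as well as from serine and threonine. Those called MAP kinase phosphatases act on the activation loop of ERK, JNK and p38, and several are themselves transcribed when these kinases are active, which makes them negative feedback regulators. In the brain the inducible members belong to the genes that neuronal activity switches on, and in blood leukocytes they limit the response to immune stimuli. By role, Dusp1, Dusp2, Dusp4 and Dusp5 are inducible nuclear enzymes, Dusp6 and Dusp7 are cytoplasmic and prefer ERK, Dusp10 and Dusp16 act mainly on JNK and p38, and Dusp3 and Dusp14 are small atypical enzymes without the kinase-binding domain of the others.

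Upstream sequences were available for 9 of the 10 genes from RefSeq (rat assembly GRCr8), and the 250 bases before the annotated start were searched on both strands for short elements known from inducible genes. Those of 3 members of the nuclear group are printed because they carried those elements, 5′ to 3′ on the strand of the gene, with the cAMP response element (TGACGTCA) and its core (TGACG), the E-box (CACGTG) and the CArG box in capitals.
Dusp1, chr10:17184603-17184852, plus strand: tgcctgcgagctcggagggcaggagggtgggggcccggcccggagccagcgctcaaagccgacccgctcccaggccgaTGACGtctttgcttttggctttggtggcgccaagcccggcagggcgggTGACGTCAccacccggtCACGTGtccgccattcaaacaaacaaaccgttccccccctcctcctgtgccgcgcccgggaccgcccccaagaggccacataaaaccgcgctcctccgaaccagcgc
Dusp2, chr3:135009386-135009635, plus strand: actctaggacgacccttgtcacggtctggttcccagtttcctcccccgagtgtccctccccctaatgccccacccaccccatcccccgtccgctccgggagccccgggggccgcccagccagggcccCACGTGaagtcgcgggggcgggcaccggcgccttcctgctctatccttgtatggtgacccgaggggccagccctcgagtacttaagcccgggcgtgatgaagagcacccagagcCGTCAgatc
Dusp5, chr1:262543524-262543773, plus strand: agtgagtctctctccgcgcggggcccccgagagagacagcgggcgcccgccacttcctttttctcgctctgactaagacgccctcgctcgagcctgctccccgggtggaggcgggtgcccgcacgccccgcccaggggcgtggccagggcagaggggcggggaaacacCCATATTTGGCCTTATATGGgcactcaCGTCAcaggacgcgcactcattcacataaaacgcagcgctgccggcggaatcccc
The Dusp1 window held the full cAMP response element, whose first base lies 124 bases before the start, a further TGACG site at 172 bases and an E-box at 107 bases. The full element contains a TGACG site on each strand, so these overlap. Dusp2 had an E-box at 123 bases and a TGACG site at 9 bases. Dusp5 had a pair of adjoining CArG boxes, the binding element of serum response factor, at 82 and 72 bases, and a TGACG site at 55 bases. The sites of Dusp2 and Dusp5 read TGACG on the opposite strand. Among all 33469 upstream windows of the table the full element was in 1.59%, the TGACG site in 18.2%, the E-box in 5.59% and the CArG box in 501 windows. Among the 9 members with a window, counted per gene over all its windows, the full element was in 1 gene, the TGACG site in 6, the E-box in 2 and the CArG box in 1. A GC box (GGGCGG) was in 8 members, against 30.5% of all windows, and an EGR site (GCGNGGGCG) was in 3 members (Dusp2, Dusp5 and Dusp16), against 4.29%, and this site can overlap a GC box. The AP-1 site (TGANTCA, 6.34% of windows) and the TATA box (TATAAA, 12.9%) were each found in a window of Dusp14, which has 3. Dusp6 held none of these letters in its window, and Dusp4 had no entry. Such a match describes letters in a window and does not show that a factor binds there.

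Neuronal and astrocyte markers set brain apart from blood. All 8 neuronal and all 6 astrocyte markers had a mean above 6.2, the level the study used for presence, in both HC and PFC. In blood, 1 of 8 neuronal and none of the astrocyte markers passed it. Of 4 markers of hippocampal fields, 4 passed it in HC, 2 in PFC and 2 in blood. They averaged 9.32 to 9.42 over the HC arrays, 6.88 to 6.98 over the PFC arrays and 5.97 to 6.17 over the blood arrays. Of 5 neocortex markers, 1 had a probe set with exactly 1 symbol, and it passed in both HC and PFC. Of 5 microglia markers, 4 passed in HC, 4 in PFC and 5 in blood. Erythroid markers averaged 5.31 to 5.64 over the HC arrays, 5.96 to 6.32 over the PFC arrays and 12.66 to 12.84 over the blood arrays. Of 4 choroid plexus markers, 1 passed 6.2 in HC, none in PFC and 1 in blood. Array means lay between 6.154 and 6.202. Fewer cells of a type and less RNA per cell cannot be told apart in such tissue samples.

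At the level of 6.2, 7 of the 10 phosphatases were present in all 3 tissues. Dusp2 was above it in blood only, and Dusp4 and Dusp14 were above it in HC and PFC only. As a second measure of background, the 95th percentile of 1298 probe sets for odorant, vomeronasal and taste receptors was 4.88 in HC, 4.85 in PFC and 5.53 in blood, and every member's tissue mean lay above it. Dusp14 in blood had the closest mean, at 5.56. Within a tissue the SD of a member was between 0.029 and 0.31 in HC, between 0.062 and 0.17 in PFC and between 0.058 and 0.55 in blood.

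**Figure D1:**
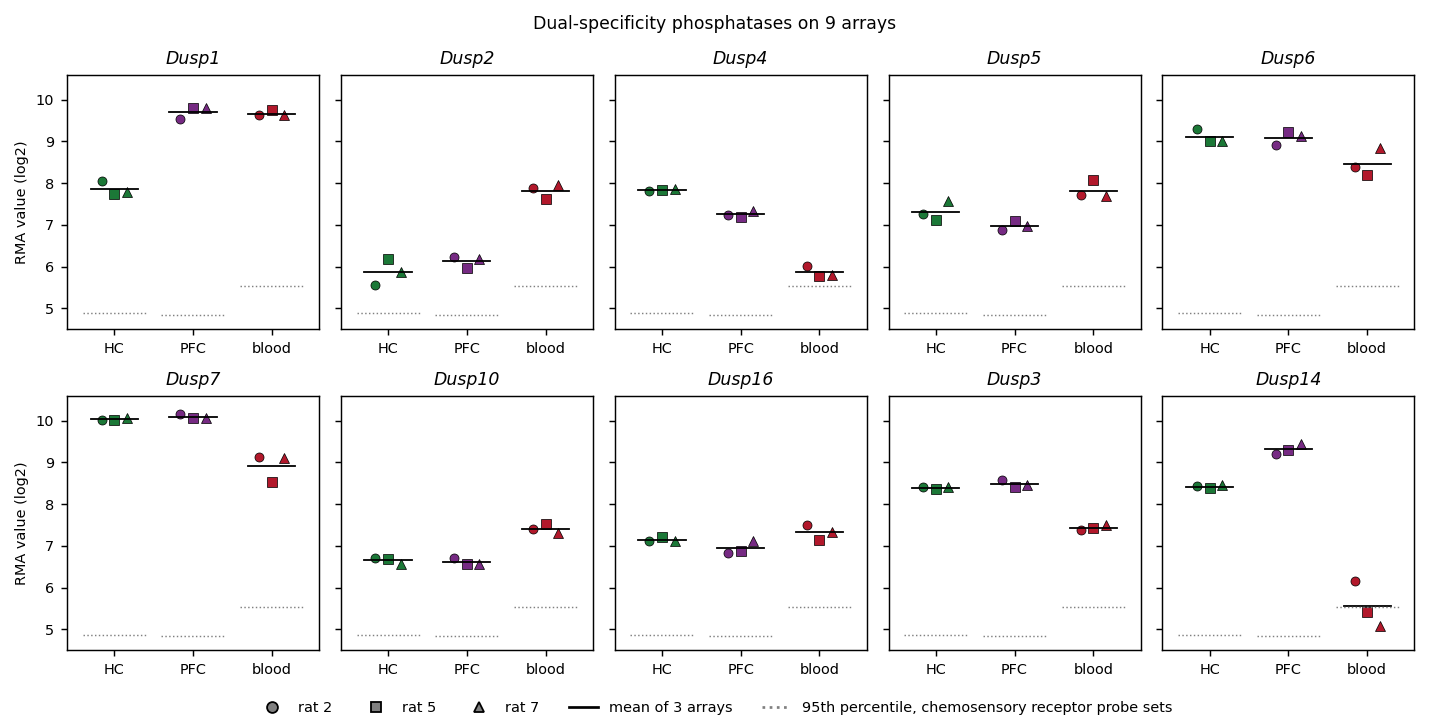
RMA value (log2, vertical axis) of the 10 phosphatases in HC, PFC and blood, with 1 point per rat, a bar at the mean of 3 arrays and a dotted line at the receptor-gene background of the tissue. Dusp1 was low in HC at a mean of 7.86, with PFC at 9.70 and blood at 9.67, whereas Dusp14 was low in blood at 5.56, with HC at 8.42 and PFC at 9.31.

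All 10 passed the filter for testing, a mean above 6.2 in at least 1 tissue, which 16884 probe sets passed. Dusp2 passed it through blood only, which fixed the sign of its differences from blood. Dusp4 and Dusp14 had blood means below 6.2, so the filter required at least 1 brain region to lie above blood. Differences were tested with limma in 1 model over the 9 arrays, and p-values were adjusted over all 16884 probe sets by Benjamini-Hochberg and called under 0.05. The 2 comparisons with blood share the blood arrays. In HC, 5 members were higher and 4 lower than in blood, against 47.6% of all tested probe sets called higher and 36.3% called lower (83.9% in either direction). In PFC it was also 5 higher and 4 lower than in blood, against 47.3% and 36.7% (84.0% in either direction). The ranges of the 3 arrays did not overlap for 9 of 10 members between HC and blood, against 84.4% of probe sets, and for 9 of 10 between PFC and blood, against 83.8%. With most probe sets of the array called between brain and blood, these counts are near the background and are not particular to the phosphatases. Between HC and PFC, 1 member was higher in HC and 2 were lower, where 4.51% of probe sets were called higher and 4.66% lower (9.16% in either direction). The median absolute difference of the members was 1.03 for HC against blood, 0.94 for PFC against blood and 0.23 for HC against PFC, beside 0.98, 0.97 and 0.12 over all tested probe sets. Scaling the arrays on 14 probe sets of housekeeping genes moved every difference from blood down, by -0.69 for HC and -0.75 for PFC, and turned the split over all probe sets to 4824 higher and 11104 lower in HC and to 4574 higher and 11473 lower in PFC (768 higher and 522 lower between HC and PFC, against 761 and 786 as deposited), so directions against blood are relative to RMA's assumption of equal distributions.

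Of the nuclear group, Dusp1 (MKP-1, which inactivates p38, JNK and ERK) separated HC from the other tissues. Its values in rats 2, 5 and 7 were 8.05, 7.74 and 7.79 in HC, 9.54, 9.79 and 9.79 in PFC, and 9.63, 9.75 and 9.62 in blood. Every HC array was below every PFC and every blood array, while PFC and blood overlapped. Dusp1 was 3.50-fold lower in HC than in blood (log2 difference -1.81, SE 0.11, adjusted p = 1.733e-07). Between PFC and blood the difference was 0.04, with a 95% confidence interval of -0.21 to 0.29 and an adjusted p of 0.754. Scaled on the housekeeping panel, that difference was -0.71 with an adjusted p of 0.001033.

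Dusp2 (PAC-1), an enzyme first known from activated T cells, was among the members with their highest level in blood. It had values of 5.56, 6.17 and 5.87 in HC, 6.24, 5.97 and 6.17 in PFC, and 7.88, 7.63 and 7.96 in blood. Both brain regions lay wholly below blood and overlapped with each other. Only the blood mean was above 6.2, so the filter fixed the sign of the differences from blood. The difference from blood was -1.95 for HC (SE 0.16, 3.87-fold lower, adjusted p = 1.352e-06) and -1.70 for PFC (3.24-fold lower, adjusted p = 3.97e-06). All 5 T cell markers on the array were present in blood, against 1 in HC and none in PFC; their part in the result was not tested.

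Dusp4 (MKP-2) ran the other way. Its values were 7.81, 7.84 and 7.87 in HC, 7.24, 7.19 and 7.34 in PFC, and 6.01, 5.79 and 5.79 in blood. The 3 tissues did not overlap, with HC above PFC and PFC above blood. Dusp4 was 3.93-fold higher in HC than in blood (log2 difference 1.98, SE 0.090, adjusted p = 1.888e-08) and 2.63-fold higher in PFC than in blood (1.40, adjusted p = 2.367e-07).

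Dusp5, a nuclear phosphatase selective for ERK, was lower in brain by a smaller step. It had 7.26, 7.12 and 7.58 in HC, 6.88, 7.10 and 6.97 in PFC, and 7.71, 8.07 and 7.68 in blood. The highest HC array and the lowest blood array were 7.58 and 7.68, close together without overlap. The difference was -0.50 for HC against blood (95% confidence interval -0.83 to -0.18, adjusted p = 0.008694) and -0.84 for PFC against blood (-1.16 to -0.51, adjusted p = 0.0003708). The HC call was lost without rat 2 (adjusted p = 0.05327), without rat 5 (-0.28, adjusted p = 0.08661) and with array weights estimated per tissue (0.09141).

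Dusp6 (MKP-3) and Dusp7, the cytoplasmic ERK phosphatases, were both higher in brain. Dusp6 had 9.30, 9.01 and 9.02 in HC, 8.90, 9.23 and 9.12 in PFC, and 8.38, 8.19 and 8.83 in blood. The brain values overlapped each other and lay above blood, whose rat 7 came closest. Dusp6 was 1.56-fold higher in HC (log2 difference 0.64, SE 0.17, adjusted p = 0.004931) and 1.53-fold higher in PFC (0.62, adjusted p = 0.006189) than in blood. The HC call was lost without rat 2 (0.50, adjusted p = 0.07129), the PFC call without rat 5 (0.40, adjusted p = 0.09223), and with housekeeping scaling the differences turned to -0.042 in HC and -0.13 in PFC.

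Dusp7 gave the wider step of the pair. Its values were 10.01, 10.01 and 10.07 in HC, 10.17, 10.07 and 10.06 in PFC, and 9.12, 8.53 and 9.10 in blood. HC and PFC overlapped, and blood lay below both, with its rat 5 lowest. The difference from blood was 1.11 for HC (SE 0.15, 2.16-fold, adjusted p = 5.047e-05) and 1.18 for PFC (2.27-fold, adjusted p = 3.233e-05). Both calls held with housekeeping scaling, at 0.43 in HC and 0.43 in PFC.

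Dusp10 (MKP-5) and Dusp16 (MKP-7), which act on JNK and p38, leaned to blood. Dusp10 had 6.71, 6.68 and 6.58 in HC, 6.71, 6.58 and 6.57 in PFC, and 7.40, 7.51 and 7.32 in blood, so brain and blood were apart and the brain regions overlapped. Dusp10 was 1.69-fold lower in HC (log2 difference -0.75, SE 0.090, adjusted p = 2.33e-05) and 1.73-fold lower in PFC (-0.79, adjusted p = 1.67e-05) than in blood.

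Dusp16 had the narrowest range of the members over tissues. It had 7.12, 7.21 and 7.12 in HC, 6.83, 6.89 and 7.12 in PFC, and 7.51, 7.14 and 7.33 in blood. HC overlapped with blood and with PFC, while PFC lay just below blood. The difference from blood was -0.18 in HC (95% confidence interval -0.44 to 0.08, adjusted p = 0.1783) and -0.38 in PFC (-0.64 to -0.12, adjusted p = 0.01164). The PFC call was lost without rat 2 (-0.23, adjusted p = 0.1555) and with array weights (0.06062), and the HC difference passed the test without the blood array of rat 5 (-0.27, adjusted p = 0.03308) and with housekeeping scaling (-0.86).

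The small atypical enzymes were higher in brain. Dusp3 (VHR), which dephosphorylates ERK and JNK, had 8.40, 8.35 and 8.40 in HC, 8.58, 8.40 and 8.46 in PFC, and 7.38, 7.42 and 7.49 in blood. Every brain array exceeded every blood array, and HC and PFC overlapped. Dusp3 was 1.94-fold higher in HC (log2 difference 0.96, SE 0.082, adjusted p = 2.02e-06) and 2.07-fold higher in PFC (1.05, adjusted p = 9.795e-07) than in blood, and under housekeeping scaling the differences were 0.27 and 0.30. Some deposited values were identical between arrays, 8.4035 for Dusp3 in 3 brain arrays, 6.7139 for Dusp10 in both brain arrays of rat 2 and 7.1173 for Dusp16 in 3 brain arrays.

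Dusp14 (MKP-6) had the widest tissue difference of the 10. Its values were 8.43, 8.38 and 8.46 in HC, 9.20, 9.30 and 9.43 in PFC, and 6.17, 5.43 and 5.09 in blood. The 3 tissues did not overlap. Dusp14 was 7.27-fold higher in HC than in blood (log2 difference 2.86, 95% confidence interval 2.36 to 3.36, adjusted p = 9.658e-07) and 13.5-fold higher in PFC than in blood (3.75, 3.25 to 4.25, adjusted p = 1.268e-07). In blood, rats 5 and 7 lay below the receptor-gene background of 5.53, so the size of these folds rests on values at background. With a blood mean below 6.2, the filter also required at least 1 brain region to lie above blood.

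**Figure D2:**
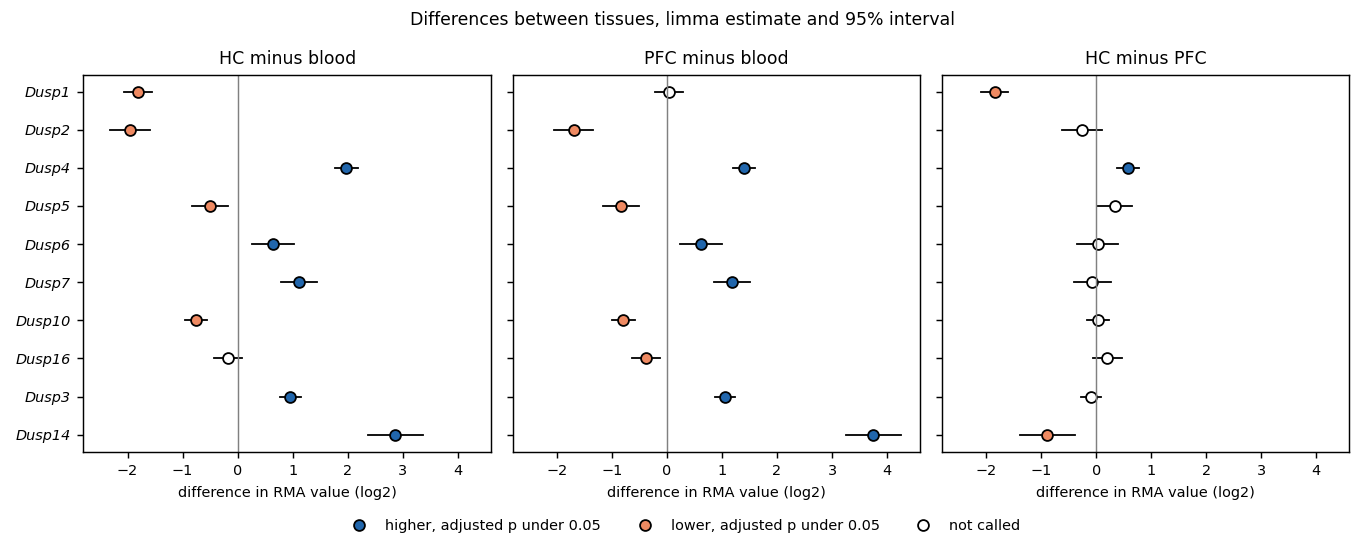
Log2 difference of each phosphatase (horizontal axis) for HC minus blood, PFC minus blood and HC minus PFC, with the 95% confidence interval from limma, where filled points were called at an adjusted p under 0.05. The widest differences are those of Dusp14 from blood, 2.86 in HC and 3.75 in PFC, and between HC and PFC that of Dusp1, -1.85.

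The regions differed from each other in 3 members. Dusp1 was 3.59-fold lower in HC than in PFC (log2 difference -1.85, 95% confidence interval -2.10 to -1.59, adjusted p = 9.652e-06). The difference was -1.49, -2.05 and -2.00 in rats 2, 5 and 7, and only 0.503% of tested probe sets had a larger absolute difference between the regions. It passed the test in all 22 alternative fits, at -2.02 to -1.74. Hbb, the beta globin of red cells, averaged 8.69 in HC and 9.66 in PFC, the transthyretin gene Ttr of the choroid plexus 10.42 in HC and 4.35 in PFC, and oligodendrocyte markers 9.99 to 10.34 over the HC arrays and 9.07 to 9.62 over the PFC arrays. Their part in the result was not tested.

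Dusp4 was 1.49-fold higher in HC than in PFC (log2 difference 0.58, 95% confidence interval 0.38 to 0.78, adjusted p = 0.002895), with 0.57, 0.65 and 0.53 in the 3 rats. A larger absolute difference was found in 6.98% of probe sets. Without rat 5 the adjusted p was 0.05277 and without rat 7 it was 0.05368.

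Dusp14 was 1.85-fold lower in HC than in PFC (log2 difference -0.89, 95% confidence interval -1.39 to -0.39, adjusted p = 0.03565), with -0.77, -0.92 and -0.97 in the 3 rats and 3.22% of probe sets further apart. This call was the least stable, as it held in 11 of 22 alternative fits. It was lost with the rat as a fixed block (adjusted p = 0.05228), without the filter (0.06552), with housekeeping scaling (0.07766), without rat 5 (0.2622) or rat 7 (0.1603), and without any 1 of the 6 brain arrays (0.08526 to 0.1331). With only the 6 brain arrays in the fit, which leaves out the spread in blood, the adjusted p was 0.0001811.

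The other 7 members did not pass the test between the regions. Dusp5 came closest, with a difference of 0.33 between HC and PFC (95% confidence interval 0.0081 to 0.66, adjusted p = 0.2491) and ranges that did not overlap. Ranges without overlap were found for 4 of 10 members, against 42.0% of all tested probe sets. For Dusp2 the difference was -0.26 (-0.62 to 0.10) and for Dusp16 it was 0.20 (-0.06 to 0.46). Dusp3, Dusp6, Dusp7 and Dusp10 had differences between -0.09 and 0.03, and their intervals reached no further than -0.40 and 0.40.

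Since Dusp1 is an immediate early gene, the same comparison is given for a list of 20 such genes, transcribed within minutes of a stimulus without new protein synthesis, of which 18 were tested. Of these, 9 were lower in HC than in PFC, 2 were higher and 7 were not called. Over all tested probe sets, 4.66% were called lower and 4.51% higher. The list's median difference was -0.45 beside -0.0032 over all tested probe sets. Among the 9, Ier2 was below the level used for presence in both regions (means of 5.25 in HC and 5.67 in PFC). Ier2 was tested only because of its blood mean of 6.91. Ier3 averaged 5.66 in HC, below that level, and 6.2023 in PFC, just above it. Egr2 averaged 6.05 in HC, below that level, and 7.02 in PFC. The blood means of Ier3 and Egr2, 6.07 and 5.92, were also below it. Both therefore passed the filter through PFC only, which fixed the sign of their differences between the regions. Fos, a subunit of the AP-1 transcription factor, had 6.77, 6.45 and 6.53 in HC and 7.38, 7.77 and 7.59 in PFC, without overlap (-0.995, adjusted p = 0.0131). Egr1, a zinc finger transcription factor, had 9.07, 8.97 and 9.07 in HC and 9.84, 10.05 and 10.06 in PFC (-0.94, adjusted p = 0.001606).

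The other named early genes had differences of the same sign. The orphan nuclear receptor Nr4a1 differed by -0.96 between HC and PFC (adjusted p = 0.006391) and the AP-1 subunit Junb by -0.48 (adjusted p = 0.01411). The Nr4a1 call was lost without rat 5 (adjusted p = 0.1192) and without rat 7 (0.1199), and the calls of Fos and Junb held in 16 and 15 of 22 alternative fits. Arc, a synaptic protein gene switched on by neuronal activity, had a difference of -0.66 that did not pass (adjusted p = 0.1371). The 2 genes higher in HC, named after their values were seen, were Nr4a2 (1.45, adjusted p = 0.0001178) and Nr4a3 (0.98, adjusted p = 0.004608, and 0.08324 without rat 5). The count of 9 lower genes depended on the arrays, as it was between 2 and 10 when 1 array or 1 rat was left out (5, 2 and 2 without rats 2, 5 and 7) and 4 with housekeeping scaling. Of Fos, Egr1, Arc, Nr4a1 and Junb, Fos and Arc had no upstream window. The Egr1 window held a pair of CArG boxes and a pair of TGACG sites. Those of Nr4a1 and Junb held TGACG sites, a core found in 18.2% of all windows and, counted per gene, in 6 of the 9 members with a window. No window of these early genes held the full cAMP response element of Dusp1.

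**Figure D3:**
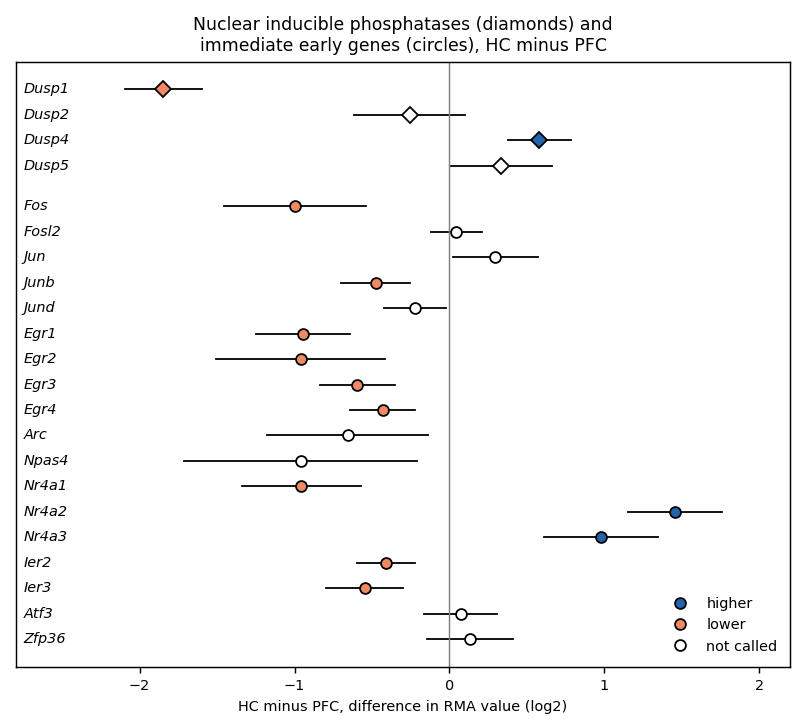
Log2 difference HC minus PFC (horizontal axis) with its 95% confidence interval from limma for the 4 nuclear phosphatases (diamonds) and 18 immediate early genes (circles), coloured by whether they were called higher, lower or not called in HC. Dusp1 at -1.85 lies furthest to the left, 9 early genes were called lower, and Nr4a2 at 1.45 and Nr4a3 at 0.98 lie on the right.

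Of 21 other dual-specificity phosphatase symbols listed, some of them older and newer names of 1 gene, 13 had a probe set annotated with exactly 1 symbol. Of these, 9 were tested. In HC, 4 were higher than in blood (Dusp8, Dusp15, Dusp18 and Dusp19) and 2 were lower (Dusp11 and Dusp13b), and in PFC Dusp26 joined the higher ones, making 5, with the same pair lower. Of all tested probe sets, 47.6% were higher and 36.3% lower in HC than in blood, and 47.3% and 36.7% in PFC. Dusp13b was above 6.2 in blood only, so the filter fixed the sign of its difference. Dusp8, which acts on JNK and p38, differed from blood by 2.84 in HC and 2.97 in PFC, Dusp15 by 2.49 and 2.16, and Dusp19 by 3.15 and 2.73, in each case against a blood mean below the receptor-gene background (5.51, 4.53 and 4.96). For Dusp8, Dusp15 and Dusp19 the filter thus required at least 1 brain region to lie above blood. Dusp18 differed by 0.60 in HC and 0.34 in PFC. Dusp11, an RNA phosphatase, was lower by -0.51 in HC and -0.68 in PFC, and the HC call was lost without rat 2 (adjusted p = 0.06765) and without rat 7 (0.05783). The PFC call of Dusp18 was lost without rat 7 (adjusted p = 0.1076) and with array weights (0.07448), and with housekeeping scaling Dusp18 differed by -0.082 in HC and -0.41 in PFC.

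Dusp12 had differences from blood of 0.05 in HC and 0.05 in PFC, and Dusp22, which acts in JNK signalling, of -0.05 and 0.03, none of which passed. Dusp26, known for its expression in neural tissue, was the only one of the 9 called between the regions, with 6.85 ± 0.03 in HC and 7.89 ± 0.08 in PFC (SD, n = 3 each; difference -1.04, adjusted p = 0.01012). Its blood mean was 7.05 ± 0.50, from which HC differed by -0.20 (adjusted p = 0.3713) and PFC by 0.84 (adjusted p = 0.003173). With housekeeping scaling 7 of these genes were lower than blood in HC and 7 in PFC, and Dusp26 was no longer called between the regions (adjusted p = 0.06818), a call also lost without rat 2 (0.1667) and without rat 7 (0.06979). The PFC difference of Dusp26 from blood was 0.093 with that scaling (adjusted p = 0.7526). Dusp26 and Dusp13b each had 2 probe sets, of which only the one with the higher mean over the 9 arrays was used. Dusp23 was not analysed here.

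The kinases that these phosphatases act on were counted in the same way. Of all tested probe sets, 47.6% were higher and 36.3% lower in HC than in blood, and 47.3% and 36.7% in PFC. Between the regions 9.16% were called. The counts of this and the following lists are to be read beside these shares. In the JNK cascade, 9 of 12 genes were higher in HC than in blood and 1 was lower, and in PFC 9 were higher and 2 lower, with medians of 2.69 and 2.74 (3 lower in HC with housekeeping scaling). Mapk10 (JNK3), the isoform enriched in neurons, differed by 5.01 in HC and 5.54 in PFC, Mapk9 (JNK2) by 2.85 and 3.23, and Mapk8 (JNK1) by 1.87 and 2.42. Mapk8 was also the only gene of the cascade called between the regions, at -0.54 for HC minus PFC (adjusted p = 0.01068), a call lost in 7 of 22 alternative fits. The Mapk10 blood mean of 5.58 was close to background.

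In the p38 cascade, 3 of 9 genes were higher and 5 lower than in blood, both in HC (median -0.60) and in PFC (median -0.45). Of the lower genes, Mapk12, Mapk13 and Mapkapk3 were above 6.2 in blood only, so the filter fixed the sign of their differences. With a filter at 7.2 instead of 6.2, 2 genes of the cascade were lower in HC and 2 in PFC. With a mean over all 9 arrays above 6.2, 3 were lower in each region. Mapk14 (p38 alpha) had differences of -0.12 in HC and -0.22 in PFC that did not pass (adjusted p = 0.459 and 0.196). Mapk11 (p38 beta) was higher by 1.11 in HC and 2.15 in PFC, and lower in HC than in PFC by -1.04 (adjusted p = 0.0002591), a call kept in all 22 alternative fits. Its blood mean was below 6.2, so the filter required at least 1 brain region to lie above blood. With housekeeping scaling 1 gene of the cascade was higher than blood in HC and 1 in PFC.

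In the ERK cascade, 7 of 11 genes were higher and 2 lower in HC than in blood, and 6 were higher and 2 lower in PFC. Map2k1 (MEK1) was higher by 2.39 in HC and 2.01 in PFC, whereas Map2k2 (MEK2) was lower by -0.87 and -0.83. Map2k1 and the scaffold gene Ksr1, the second named after its values were seen, were the 2 genes higher in HC than in PFC, by 0.38 (adjusted p = 0.03874) and 1.08 (adjusted p = 9.028e-05), and the Map2k1 call held in 10 of 22 alternative fits. With housekeeping scaling the ERK cascade split into 4 higher and 5 lower in HC and 3 higher and 6 lower in PFC.

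Other phosphatases and inhibitors that restrain the same kinases also differed from blood. Of the 3 tyrosine phosphatases of MAP kinases, Ptpn5 (STEP, the striatum-enriched phosphatase) was higher by 2.44 in HC and 2.48 in PFC and Ptprr by 2.01 and 2.05 (blood mean 5.26, below the receptor-gene background), while the leukocyte enzyme Ptpn7 was lower by -1.82 and -1.82. None of the 3 was called between the regions. Of 8 tested Sprouty, Spred and Ras-GAP genes, 5 were higher in HC than in blood and 1 lower, and 5 were higher in PFC. Spry2 was higher by 2.57 in HC and 2.59 in PFC and Spred1 by 4.01 and 4.28, against blood means of 5.22 and 5.47 below background. Spry4 was lower by -0.34 in HC (adjusted p = 0.01159) and had a difference of -0.13 in PFC (adjusted p = 0.2778). The HC call of Spry4 was lost without rat 2 (adjusted p = 0.1319), without the HC array of rat 2 (0.05708), without rat 5 (0.06263) and with array weights (0.07804). With housekeeping scaling 4 of these inhibitors were lower than blood in HC and 4 in PFC. Of the 18 tested immediate early genes, 8 were higher and 7 lower in HC than in blood, and 10 were higher and 5 lower in PFC (8 lower in PFC with housekeeping scaling). In HC these early gene counts are near the shares over all tested probe sets, 47.6% higher and 36.3% lower. In PFC those shares were 47.3% and 36.7%. Ptpn7 and the early genes Ier2 and Atf3 were above 6.2 in blood only, so the filter fixed the sign of their differences from blood. Ptprr, Spry2, Spred1, Spred2 and the early genes Arc, Egr2, Egr3, Ier3, Npas4, Nr4a2 and Nr4a3 had blood means below 6.2. For these the filter required at least 1 brain region to lie above blood.

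The early genes named above lay on both sides of blood. Egr1 was higher by 2.46 in HC and 3.41 in PFC, Arc by 4.04 and 4.70, and Nr4a1 by 1.09 and 2.04. The blood mean of Arc, 5.18, was below the receptor-gene background, and the HC call of Nr4a1 was lost with housekeeping scaling (adjusted p = 0.08329). Fos differed from blood by -0.40 in HC (adjusted p = 0.0931) and was higher by 0.60 in PFC (adjusted p = 0.02), a call that held in 17 of 22 alternative fits. The HC difference of Fos passed the test without the blood array of rat 2 (-0.65, adjusted p = 0.001911), without rat 2 (-0.74, adjusted p = 0.001363) and with housekeeping scaling (-1.08, adjusted p = 0.001764). Junb was lower by -0.46 in HC (adjusted p = 0.001668) and differed by 0.02 in PFC (adjusted p = 0.8454). The PFC difference of Fos turned to -0.15 and that of Junb to -0.73 with housekeeping scaling.

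**Figure D4:**
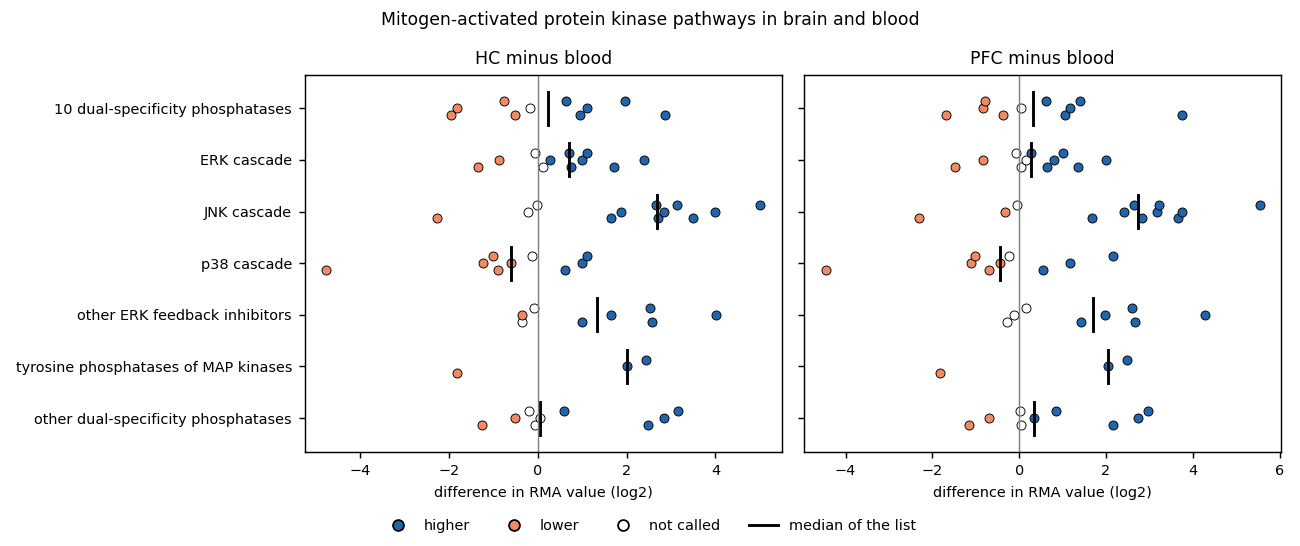
Log2 difference of every tested gene of 7 gene groups (1 point per gene, horizontal axis) for HC minus blood and PFC minus blood, coloured by the call, with a bar at the median of each group and the 10 phosphatases as the top row. The JNK cascade has medians of 2.69 in HC and 2.74 in PFC, and the p38 cascade -0.60 in HC and -0.45 in PFC.

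For each member the 3 genes whose values ran most like it over the 9 arrays were taken, by the root mean square of the difference between both profiles after centring each gene on its own mean, among 14505 other genes. The closest profiles were those of Dusp7, with Atp13a2 at 0.035, Cdadc1 at 0.043 and Golga7 at 0.048 log2 units, and of Dusp10, with Gc at 0.036, Txndc2 at 0.040 and Prss21 at 0.044. Gc (3.54 to 4.38) and Txndc2 (4.47 to 5.21) had tissue means below the receptor-gene background in all 3 tissues, as had Or6c215 (2.50 to 3.31), which is listed for Dusp5. For Dusp3 they were Rfng at 0.049, Sirpa at 0.054 and Cisd1 at 0.057. For Dusp16 they were Mogs at 0.067, Heatr6 at 0.078 and Smim15 at 0.079. For Dusp6 and Dusp4 they were at 0.090 to 0.10, namely Arfip1, Ubox5 and Mtx2 for Dusp6 and Supt6h, Cpd and Zfpm2 for Dusp4. Those of Dusp2 (Prss39, Acp3 and Rara) and Dusp5 (Fbrs, Or6c215 and Cldn4) were at 0.13 to 0.14.

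Dusp1 and Dusp14 had the largest distances to their nearest gene among the members. The distance is not scaled to the spread of a gene over the arrays. The gene nearest to Dusp1 was Tec, a tyrosine kinase of haematopoietic cells, at 0.19, followed by Bhmt at 0.36 and Tox at 0.37. Tec averaged 4.99 in HC, 6.59 in PFC and 6.90 in blood. Dusp14 was nearest to the potassium channel gene Kcnh1 at 0.21, then Habp4 at 0.23 and Zdhhc2 at 0.24. The arrays are shared by all genes, so these distances describe the 9 arrays and carry no test.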

How the data were processed

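RNA of HC, PFC and blood of 3 rats had been hybridized to 9 arrays, and tissue and rat number were taken from the sample labels. The methods mention 4 rats with 1 sample omitted, the labels 6 and the series text 3; only the 9 arrays were used. The authors quantile normalized the intensities and deposited RMA values, whose log base is not named and was read as log2 (range 1.53 to 14.01, 29215 probe sets, 1 without value). Probe sets were named from the array annotation, 15310 with exactly 1 symbol, 323 with several and 13581 with none; 15279 matched the GRCr8 gene table. Probe sets with a mean above 6.2 in at least 1 tissue were fitted with limma 3.58.1 in R 4.3.3, tissue as a factor, no block, and Benjamini-Hochberg adjustment over 16884 probe sets; adjusted p-values come from this limma fit unless an alternative is named, which has its own limma fit and, with another filter or scaling, its own number of probe sets. The script was tested on simulated data. No exact permutation test was run, since 3 arrays on each side allow no p below 0.1.

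The rat number marks the same animal. Deviations from the tissue means correlated between same-numbered arrays at 0.14 to 0.29 for HC with PFC, 0.026 to 0.046 for HC with blood and -0.079 to 0.052 for PFC with blood. The members and gene lists were chosen with earlier results of these data known. Named were the 10 members, a preset selection of pathway genes and the 3 genes most like each member. Dusp13b, Ksr1, Nr4a2, Nr4a3, Ier3, Hbb and Ttr were added after their values were seen. So were the genes named only for the side of the filter level on which their means lay. The receptor-gene background counts current and older symbols of these families. Alternatives covered the filter, the block (statmod 1.5.0), scaling, array weights, the arrays in the fit and leaving out arrays or rats. Upstream windows of 250 bases came from RefSeq. Figures were drawn with matplotlib 3.10.9.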

Additional observations from a re-analysis of the deposited data

How the results depend on the processing

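Most values and counts kept their direction and their side of the threshold: 659 of the members' values under the alternatives, beside 20 that lost the call, 2 that gained it and 9 that changed sign. For the named pathway genes these numbers were 1305, 52, 17 and 26. The 659 include the members' values with dim tissue means raised to background, a setting without a test that could change none of them. Counts of called genes in the pathway lists stayed within 1.5 times in 828 cases and moved further in 96.

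Without the filter, 22044 probe sets were called between HC and blood and 22091 between PFC and blood. Between HC and PFC the count was 4584 with array weights and 4346 with only the 6 brain arrays. The count of members lower in HC than in PFC was 1, not 2, without the filter, with the rat as a fixed replicate block and with housekeeping scaling, each time because Dusp14 was lost. With that replicate block, 5 members were higher and 4 lower in each brain region than in blood, as without it, and the probe sets called were 14038 for HC and 14097 for PFC against blood and 1390 for HC against PFC. The block also cost the Map2k1 call between the regions (adjusted p = 0.0759) and changed no other call of a named gene. As a random block the rat had a consensus correlation of 0.0026, and the counts were 14165, 14179 and 1556.

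Leaving out 1 array or 1 rat gave 13262 to 14349 called probe sets for HC against blood, 13287 to 14340 for PFC against blood and 656 to 2632 for HC against PFC, the highest without the blood array of rat 5. Members higher in HC than in blood then numbered 4 to 5 and lower 3 to 5; in PFC against blood 4 to 5 were higher and 3 to 4 lower; in HC against PFC 0 to 1 were higher and 1 to 2 lower. Among members higher than blood Dusp6 was lost, in HC without rat 2 and in PFC without rat 5, and between HC and PFC Dusp4 was lost without rat 5 or rat 7.

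Housekeeping scaling turned these differences from blood negative. In HC they were Dusp6 at -0.042, Dusp12 at -0.64 and Dusp18 at -0.082. In PFC they were Dusp1 at -0.71, Dusp6 at -0.13, Dusp12 at -0.70, Dusp18 at -0.41, Dusp22 at -0.72, Fos at -0.15 and Junb at -0.73. This follows from the shift of -0.69 in HC and -0.75 in PFC that the scaling adds to every probe set. Centring on the median turned Dusp22 in HC to 0.017.

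The other changes of sign came from leaving out 1 array or 1 rat, in differences that had not passed the test, and the cause was not tested. The HC to PFC difference of Dusp6 ranged from -0.16 (without rat 2) to 0.15 (without rat 5). The PFC to blood difference of Dusp1 ranged from -0.024 (without rat 7) to 0.12 (without the PFC array of rat 2). Against blood in HC, Mapk14 ranged from -0.32 to 0.0044 (the highest without rat 2), Dusp26 from -0.44 (without rat 7) to 0.070, Dusp12 from -0.33 to 0.31 and Dusp22 from -0.084 to 0.0017, the last 3 with the sign changed without the blood array of rat 5. Against blood in PFC, Dusp12 ranged from -0.32 to 0.31, Dusp22 from -0.022 (without rat 2) to 0.12 (without rat 5) and Junb from -0.065 (without rat 7) to 0.16 (without rat 2). Called differences between HC and PFC that were lost without an array or a rat included those of Dusp14, Map2k1, Mapk8, Fos and Junb, whose adjusted p reached 0.2622, 0.3366, 0.1345, 0.1838 and 0.2109.

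No member's tissue mean lay below the receptor-gene background, so raising dim tissue means to it changed no value (single arrays were not raised), and no member had a second probe set to try. With 3 arrays per tissue, the number of animals limits the precision.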
